A study of Homo sapiens with 4 samples.

Results

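The 4 HOX clusters were described through the regions of methylated DNA called inside them in C42B cells (also written C4-2B), a castration-resistant derivative of the LNCaP prostate cancer line. Methylated DNA had been captured with an antibody against 5-methylcytosine and sequenced (MeDIP-seq). Members were all peaks of the deposited lists that overlapped the hg19 spans of HOXA (chromosome 7, 27.12 to 27.26 Mb), HOXB (chromosome 17, 46.6 to 46.72 Mb), HOXC (chromosome 12, 54.32 to 54.455 Mb) or HOXD (chromosome 2, 176.93 to 177.065 Mb). They numbered 164 of 261657 peaks in the control list and 155 of 296521 in the knockout list. The control library came from cells carrying the control guide sgC, labelled WT. The knockout library came from cells carrying sgPKCl/i, a guide against the atypical protein kinase C PKCλ/ι, which PRKCI encodes. Both were untreated and were harvested 48 h after plating at about 70% confluency. The sources used here do not say whether either line was 1 clone or a pool. Peak lists hold no expression values, so the loss of PRKCI was not checked. With 1 immunoprecipitated library per genotype no difference below has a replicate check, and no test between genotypes was made. The 95% intervals of counts cover counting error only. Those of medians treat neighbouring peaks or pairs as independent and do not cover the spread between libraries.

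HOX genes encode homeodomain transcription factors that set position along the body axis. Within a cluster their order on the chromosome follows the order in which they are used from head to tail, so low-numbered genes act towards the head and high-numbered genes such as HOXA13 towards the tail. In many differentiated cells silent HOX genes are held by Polycomb proteins, and in cancer cells parts of the clusters often carry DNA methylation as well. HOXA13 and HOXD13 are among the genes needed for the urogenital tract to form. The spans hold 38 HOX genes by RefSeq gene order. Gene numbers rise with the coordinate in HOXA, which ends with HOXA13, and in HOXB. The HOXB span runs from HOXB1 to HOXB9 and leaves out HOXB13, so HOXB values below do not cover that gene. HOXC and HOXD start with HOXC13 and HOXD13 at their low coordinates. Positions are therefore given as distance from the end of each span with the low-numbered genes. The gene table was of another build (GRCh38.p14), so peaks were not assigned to single genes.

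The antibody reads methylated CpG sites, and the number of CpG sites in a fragment sets how much of it can be captured. Upstream sequence of 2 paralog groups in HOXA and HOXD, the clusters with the most and the least covered length below, is shown for this reason. Each line gives the 250 bases before the gene's start, 5′ to 3′, from RefSeq (GRCh38.p14), with every CpG (the letters CG, which read the same on both strands) in capitals.
HOXA11: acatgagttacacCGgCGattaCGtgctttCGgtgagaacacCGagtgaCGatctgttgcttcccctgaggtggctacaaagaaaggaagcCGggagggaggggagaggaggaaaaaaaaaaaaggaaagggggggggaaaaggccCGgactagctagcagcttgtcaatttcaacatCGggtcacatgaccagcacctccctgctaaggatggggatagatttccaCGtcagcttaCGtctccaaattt
HOXD11: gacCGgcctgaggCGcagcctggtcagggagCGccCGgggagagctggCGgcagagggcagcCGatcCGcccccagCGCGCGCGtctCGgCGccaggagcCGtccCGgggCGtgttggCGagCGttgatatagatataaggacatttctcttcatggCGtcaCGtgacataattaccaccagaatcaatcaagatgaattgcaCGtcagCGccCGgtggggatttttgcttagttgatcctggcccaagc
HOXA13: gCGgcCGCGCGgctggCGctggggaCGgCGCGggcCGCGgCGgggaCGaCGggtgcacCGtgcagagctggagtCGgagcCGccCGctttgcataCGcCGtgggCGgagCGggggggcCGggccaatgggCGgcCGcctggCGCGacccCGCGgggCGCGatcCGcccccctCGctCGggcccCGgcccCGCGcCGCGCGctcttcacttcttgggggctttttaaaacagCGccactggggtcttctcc
HOXD13: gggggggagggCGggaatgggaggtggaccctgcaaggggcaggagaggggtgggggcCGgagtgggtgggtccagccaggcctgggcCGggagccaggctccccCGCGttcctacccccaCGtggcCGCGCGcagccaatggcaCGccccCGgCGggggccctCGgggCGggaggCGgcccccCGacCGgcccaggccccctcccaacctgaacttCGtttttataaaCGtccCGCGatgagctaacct
These lie at chr7:27185233-27185482 (minus strand), chr2:176107030-176107279 (plus strand), chr7:27200092-27200341 (minus strand) and chr2:176092471-176092720 (plus strand). They hold 11 CpG sites for HOXA11, 23 for HOXD11, 40 for HOXA13 and 21 for HOXD13. Over the upstream sequences given for 9 HOXA genes (16 sequences) the median was 19 CpG sites, with a range of 0 to 40. Over 8 HOXD genes (8 sequences) it was 22, with a range of 4 to 31. Several of the HOXA sequences are alternative starts of HOXA3, so these medians do not weigh each gene equally. Nor do upstream sequences describe the CpG content of a whole span. The table gave 1 sequence each for HOXB (HOXB1, 7 sites) and HOXC (shared by HOXC4 and HOXC5, 14 sites). Over all 35116 RefSeq sequences of the same length the median was 11, and 93.9% held at least 1 CpG. How these sequences lie relative to the hg19 peaks was not analysed here.

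The clusters differed widely in methylated length, in the same order in both genotypes. In control cells peaks covered 40.2% of the HOXA span, 32.8% of HOXC, 21.1% of HOXB and 5.37% of HOXD. In knockout cells they covered 44.2% of HOXA, 35.6% of HOXC, 21.2% of HOXB and 7.61% of HOXD. The covered share of HOXA was 7.48 times that of HOXD in control cells and 5.80 times in knockout cells. In kilobases the control cover was 56.2 in HOXA, 44.3 in HOXC, 25.4 in HOXB and 7.25 in HOXD, and the knockout cover was 61.8, 48.1, 25.5 and 10.3 in that order.

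Peak numbers separated HOXD from the other clusters but did not separate the other 3. The control list held 57 peaks in HOXA (95% interval 43.2 to 73.9), 52 in HOXC (38.8 to 68.2), 38 in HOXB (26.9 to 52.2) and 17 in HOXD (9.90 to 27.2). The knockout list held 52 in HOXA (38.8 to 68.2), 48 in HOXC (35.4 to 63.6), 35 in HOXB (24.4 to 48.7) and 20 in HOXD (12.2 to 30.9). Per 100 kb these were 40.7, 38.5, 31.7 and 12.6 peaks in the control and 37.1, 35.6, 29.2 and 14.8 in the knockout, for HOXA, HOXC, HOXB and HOXD. The density of HOXB over HOXD was 2.51 (1.39 to 4.75) in the control and 1.97 (1.11 to 3.60) in the knockout, above 1 beyond counting error. HOXA over HOXC was 1.06 (0.713 to 1.57) in the control and 1.04 (0.692 to 1.58) in the knockout. HOXC over HOXB was 1.22 (0.785 to 1.90) and 1.22 (0.772 to 1.94), so these neighbours were not told apart by number.

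**Figure D1:**
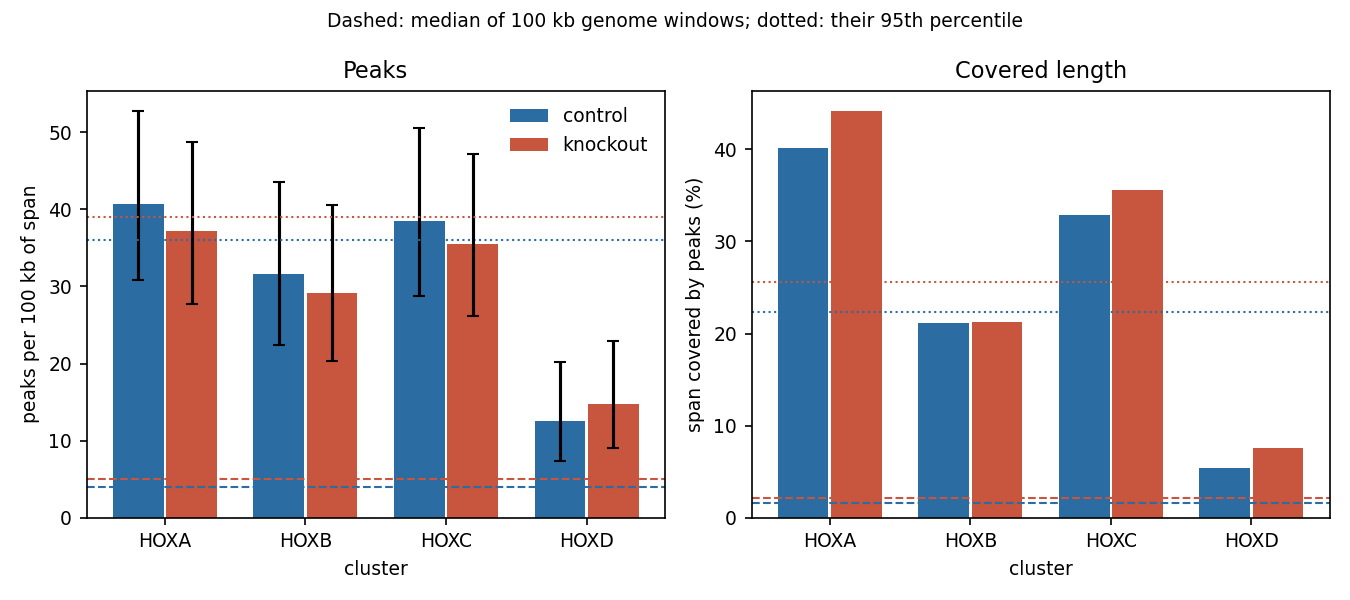
Peaks per 100 kb of span (left, bars with 95% exact Poisson intervals) and percent of the span covered by peaks (right) for each HOX cluster, control in blue and knockout in red. Dashed and dotted lines give the median and 95th percentile of 100 kb windows over the genome in the list of the same colour. HOXA and HOXC stand above the dotted line for covered length in both lists, HOXB below it, and HOXD is the lowest cluster.

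Against the genome HOXA, HOXC and HOXB were rich in methylated length and HOXD was only moderately so. Over 29475 windows of 100 kb the median covered share was 1.62% (control) and 2.11% (knockout), with 95th percentiles of 22.4% and 25.6%. Windows with no peak are included. In both lists 99.0% of windows were less covered than HOXA. For HOXC it was 98.1% of windows in the control and 98.0% in the knockout, for HOXB 94.5% and 92.8%, and for HOXD 71.7% and 74.8%. The chromosome holding each cluster was covered to 6.52% (chromosome 7), 5.66% (chromosome 12), 12.6% (chromosome 17) and 3.79% (chromosome 2) in the control, and to 7.41%, 6.67%, 14.4% and 4.16% in the knockout.

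The surroundings of the clusters differed too. In the 50 kb on each side of HOXA, peaks covered 12.0% on the low-coordinate side and 26.7% on the HOXA13 side in the control, and 16.2% and 29.5% in the knockout. Peak density inside HOXA over its flanks was 1.27 (0.811 to 2.03) in the control and 1.14 (0.718 to 1.83) in the knockout. HOXC stood out more from its flanks, by 3.50 (1.81 to 7.44) in the control and 2.74 (1.46 to 5.50) in the knockout, and HOXB by 2.37 (1.23 to 4.86) and 2.24 (1.16 to 4.62). With 25 kb on each side the interval took in 1 for HOXC in the knockout, at 1.78 (0.888 to 3.94), and for HOXB in the control, at 1.71 (0.812 to 4.04). HOXD lay in a region nearly free of peaks: its flanks held 0 summits in the control and 1 in the knockout, against 17 and 20 inside. For the control the lower 95% limit of the ratio of densities was 3.06, and 1.53 with 25 kb on each side. For the knockout the ratio was 14.8 (2.37 to 614), and 7.41 (1.18 to 307) with 25 kb. The sparse HOXD peaks were therefore still denser than their neighbourhood.

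Pileup, the number of fragments over a peak's summit, followed the same order by median, with overlapping intervals between neighbours in that order. It is given here divided by the floor, the lowest local background of each list (control 2.92 fragments, knockout 4.42), a value used here for the mean depth of the library. In the control the median scaled pileup was 14.4 in HOXA (interval of the median 11.6 to 15.7, range 5.47 to 28.1), 12.5 in HOXC (8.55 to 14.7, range 4.79 to 26.7), 10.4 in HOXB (8.21 to 12.3, range 5.13 to 21.9) and 7.87 in HOXD (6.16 to 9.58, range 5.47 to 12.3). In the knockout it was 17.7 in HOXA (13.8 to 21.5, range 5.65 to 35.5), 14.2 in HOXC (9.72 to 17.6, range 5.65 to 29.8), 12.9 in HOXB (9.04 to 14.5, range 5.88 to 21.5) and 8.93 in HOXD (5.65 to 10.6, range 4.52 to 13.8). In each list the HOXA interval lay above that of HOXD. The whole lists had medians of 8.55 and 8.14 and upper quartiles of 10.9 and 11.1. Above the upper quartile were 37 of 57 HOXA peaks, 30 of 52 HOXC peaks, 18 of 38 HOXB peaks and 2 of 17 HOXD peaks in the control, where 24.6% of all peaks lay above it. In the knockout it was 39 of 52, 31 of 48, 23 of 35 and 2 of 20, against 24.4% of all peaks.

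The local background was also raised in these clusters, which narrows the difference when the authors' fold enrichment is read in place of pileup. Median background over the floor was 1.52 in HOXA, 1.52 in HOXB, 1.44 in HOXC and 1.27 in HOXD in the control, against 1.14 over the whole list. In the knockout it was 1.72, 1.53, 1.56 and 1.49, against 1.24. Median fold enrichment was 7.44 in HOXA, 6.83 in HOXC, 5.50 in HOXB and 4.67 in HOXD in the control, and 7.17, 6.95, 6.49 and 4.73 in the knockout. Relative to its list's median, the HOXA median was 1.68 by pileup and 1.36 by fold in the control, and 2.18 by pileup and 1.34 by fold in the knockout. Higher pileup in HOXA in the knockout was thus not matched by higher fold enrichment, and the part of the background in it was not tested.

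Peaks were also long in HOXA. The median HOXA peak measured 803 bp (control) and 1044.5 bp (knockout), where the whole lists had 458 and 464 bp. The same medians were 568.5 and 644 bp for HOXC, 539.5 and 640 bp for HOXB, and 350 and 445.5 bp for HOXD. Peaks of 2 kb or longer numbered 4 in HOXA, 3 in HOXC, 1 in HOXB and 0 in HOXD in the control, where 1.20% of all peaks were that long. In the knockout they numbered 7, 5, 0 and 0, against 1.54% of all peaks. The shorter HOXD peaks all lay under 1 kb, the longest being 779 bp (control) and 958 bp (knockout).

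Along HOXA methylated length was concentrated past the middle of the cluster. In 4 equal segments counted from the low-coordinate end, cover was 28.7%, 43.2%, 54.4% and 34.4% in the control and 34.9%, 44.2%, 58.0% and 39.5% in the knockout. In bins of 10 kb the highest cover was in the 3 bins from 60 to 90 kb, with 66.8%, 65.0% and 74.4% in the control and 70.4%, 69.8% and 77.4% in the knockout. The lowest HOXA bin was the one next to the low-coordinate end in both lists, at 15.8% and 23.3%. The third segment held 19 summits in the control (11.4 to 29.7) and 17 in the knockout, and the first held 12 (6.20 to 21.0) and 10, so counts alone did not separate the segments. The longest stretch bare of peaks in both lists was 6.16 kb, from 27120397 to 27126556, close to the low-coordinate end.

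**Figure D2:**
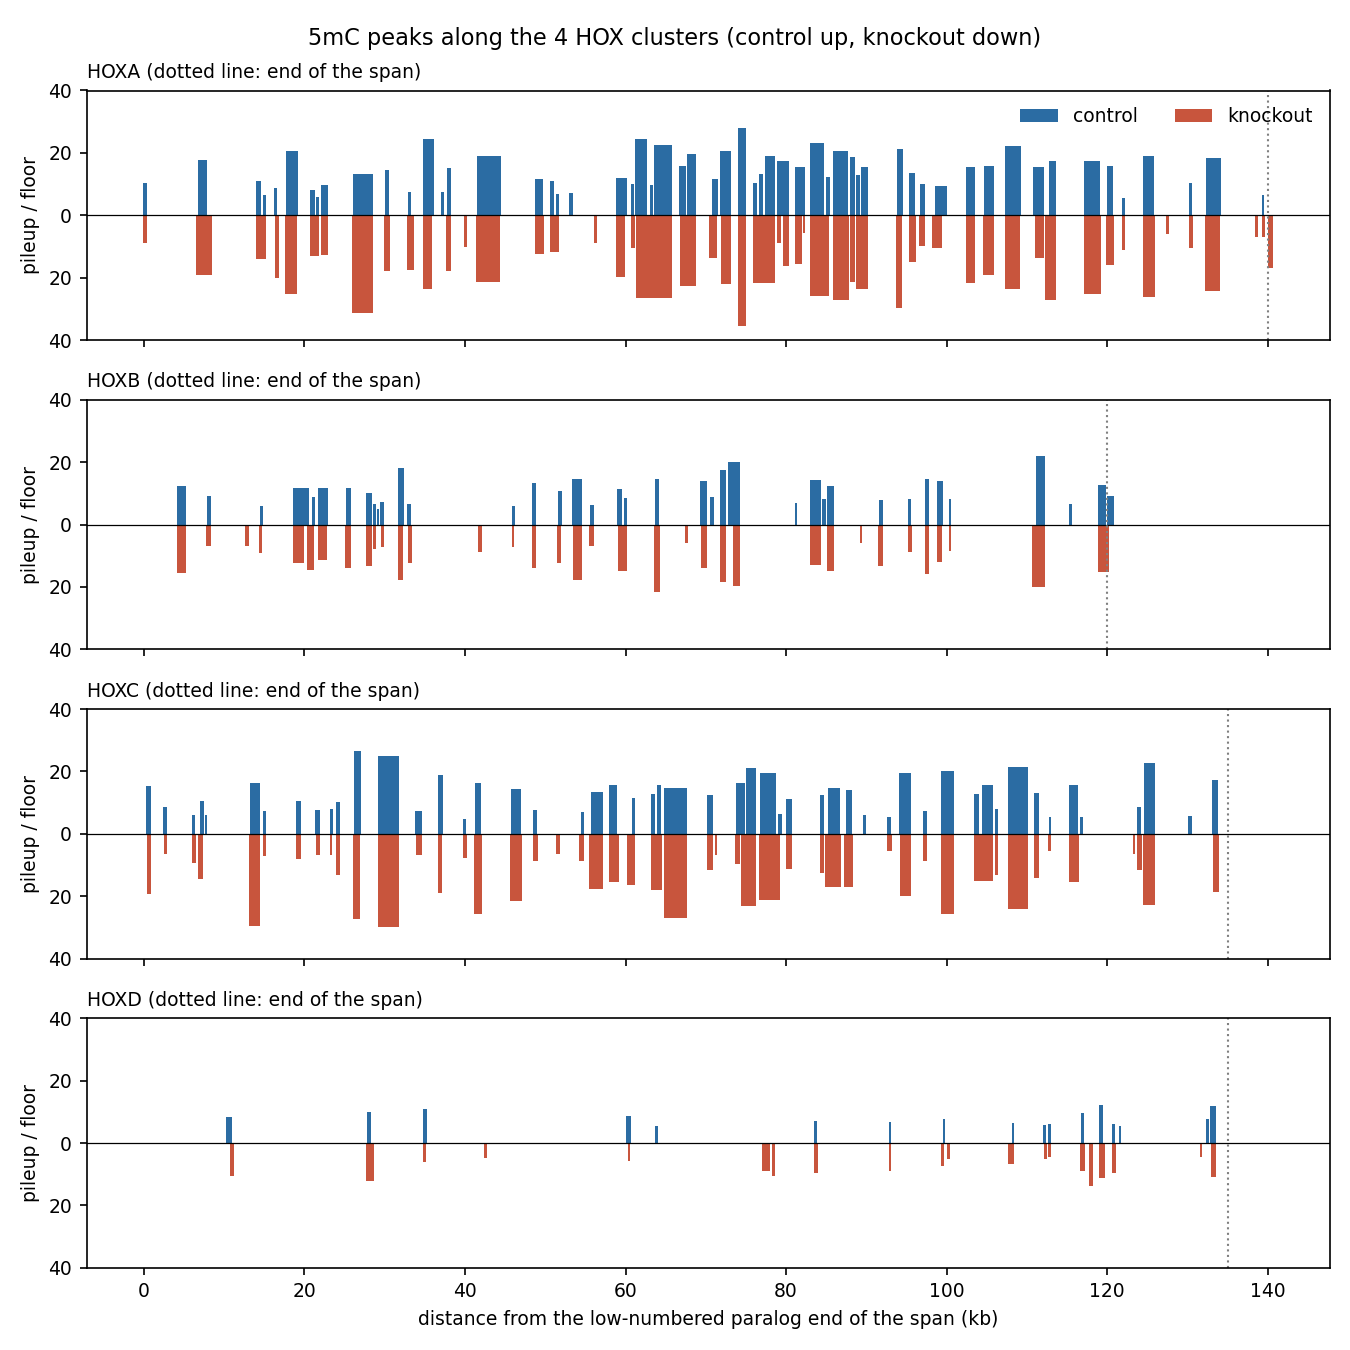
Every peak of the 4 clusters drawn from its start to its end against distance from the low-numbered end of the span in kb, with height as pileup over the floor (control upwards in blue, knockout downwards in red). HOXA and HOXC carry peaks along their whole length, HOXB has fewer and lower ones, and HOXD has scattered peaks no higher than 13.8.

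The strongest HOXA peak was the same in both genotypes. It lay at 27193969 to 27195045 in the control, where 82 fragments piled up (65.2 to 102), 28.1 times the floor, and at 27193970 to 27195044 in the knockout, where 157 did (133 to 184), 35.5 times the floor. The next in the control were at 27154793 to 27156086 and at 27181195 to 27182717, each with a pileup of 71 (24.3 times the floor). In the knockout the next were at 27145941 to 27148564, with 139 fragments (31.4 times the floor), and at 27213624 to 27214473, with 131 (29.6 times). Of the top 3 in each list, only the first was thus common to both.

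Long HOXA peaks were in part joined ones. The 4 control peaks of 2 kb or more started at 27146004 (2577 bp), 27161442 (3061 bp), 27183574 (2215 bp) and 27227220 (2000 bp). The 7 knockout ones started at 27145941 (2624 bp), 27161433 (2967 bp), 27181247 (4527 bp), 27186728 (2080 bp), 27195865 (2779 bp), 27202981 (2414 bp) and 27237102 (2109 bp). The longest, of 4527 bp at 65.4 kb from the low-coordinate end, spanned 3 control peaks, as did the one at 27195865. In all, 8 of 52 HOXA peaks of the knockout overlapped at least 2 control peaks, against 3.13% of all knockout peaks, and 2 of 57 control peaks overlapped at least 2 knockout peaks, against 2.05% of all control peaks. The number of HOXA peaks in the knockout was 0.912 times that in the control (0.614 to 1.35), which is within counting error. Covered length in HOXA was 1.10 times that of the control, below the 1.17 of the whole lists. Fewer peaks with no less cover were also found in HOXC (0.923 and 1.08 times) and HOXB (0.921 and 1.004 times). In HOXD the number was 1.18 times that of the control (0.585 to 2.39), also within counting error and near the 1.13 of the whole lists. Covered length in HOXD was 1.42 times that of the control.

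HOXC was covered most in its middle and near a second site towards HOXC13. By segment from the low-numbered end cover was 27.6%, 32.6%, 40.4% and 30.8% in the control and 27.0%, 40.3%, 44.2% and 30.9% in the knockout. Summits were evenly spread, with 13, 13, 14 and 12 in the control and 12, 13, 13 and 10 in the knockout. Cover peaked in the bin from 70 to 80 kb, at 56.8% and 61.7%, and in the bin from 100 to 110 kb, at 55.4% and 61.0%. The longest bare stretch was 6.23 kb, from 54331842 to 54338074, in the segment at the HOXC13 end.

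The highest HOXC peaks lay in the low-numbered segment of the cluster, apart from 1 control peak near the HOXC13 end. In the control they were at 54427930 to 54428869, with a pileup of 78 (26.7 times the floor), at 54423221 to 54425794, with 73 (57.2 to 91.8 fragments), and, at the other end, at 54329037 to 54330475, with 66 (22.6 times). In the knockout they were at 54423221 to 54425836, with 132 (29.8 times), at 54440534 to 54441930, with 131 (29.6 times), and at 54428041 to 54428883, with 121 (27.4 times). The peak at 54423221 and the overlapping pair at 54427930 and 54428041 were thus among the top 3 in both lists. Long peaks started at 54344864 (2460 bp), 54387357 (2831 bp) and 54423221 (2574 bp) in the control. The knockout list had them at 54344899 (2501 bp), 54349220 (2389 bp), 54375765 (2603 bp), 54387366 (2791 bp) and 54423221 (2616 bp).

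HOXB had its highest cover near the HOXB1 end and its barest stretch near the HOXB9 end. By segment from HOXB1, cover was 27.2%, 17.5%, 23.6% and 16.2% in the control and 27.6%, 19.2%, 20.5% and 17.7% in the knockout. The bin from 20 to 30 kb was the highest, at 46.3% and 42.0%, and the bin from 100 to 110 kb the lowest, at 3.15% and 3.37%. The longest bare stretch was 10.0 kb, from 46700588 to 46710587. Just beyond it lay the strongest control peak, at 46711095 to 46712259, where pileup reached 64 (21.9 times the floor). Its counterpart at 46710588 to 46712259 was the second of the knockout, with 88 (19.9 times). The strongest knockout peak was at 46663548 to 46664252, with 95 (21.5 times). Peaks at 46672747 to 46674223 in the control (pileup 59, 20.2 times) and 46673360 to 46674276 in the knockout (87, 19.7 times) also ranked in the top 3, and the third of the control was at 46631664 to 46632364 (53, 18.1 times). The only peak of 2 kb or more was one of 2052 bp at 46618561 in the control, which met 2 knockout peaks.

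**Figure D3:**
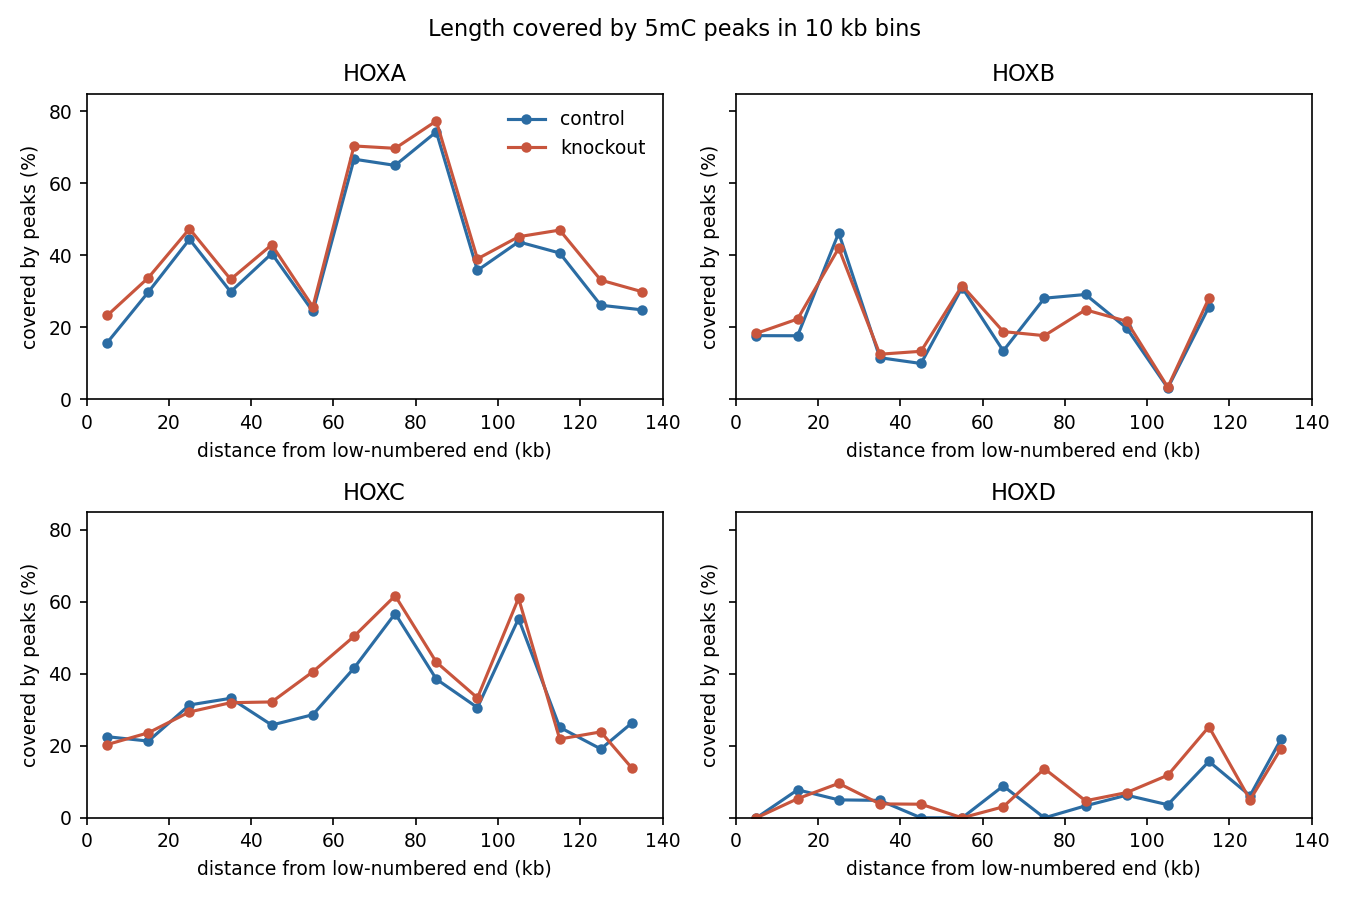
Percent of each 10 kb bin covered by peaks, against distance from the low-numbered end of the cluster in kb, control in blue and knockout in red. The last bin of HOXC and HOXD, from 130 to 135 kb, is shorter than the others, so a short peak fills more of it. The lists trace the same profile in HOXA, with 3 bins from 60 to 90 kb above all others. The 2 highest HOXD bins of each list lie towards the high-numbered end of the span, at 110 to 120 and 130 to 135 kb.

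HOXD peaks were few and gathered towards the high-numbered end of the span. Whether those peaks lie over HOX genes or beyond HOXD13 was not determined, since genes were not placed on hg19. By segment from HOXD1 the control held 2, 3, 3 and 9 summits and the knockout 2, 3, 6 and 9, and cover was 3.79%, 4.06%, 2.85% and 10.8% in the control and 4.41%, 3.18%, 8.56% and 14.3% in the knockout. The last segment thus held 9 of the 17 control summits (interval 4.12 to 17.1) against 2 (0.242 to 7.22) in the first, and these intervals overlap. The longest bare stretch was 17.3 kb, from 177004948 to 177022246. The spans of HOXA, HOXB and HOXC had no bare stretch of that length.

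The strongest HOXD peaks were weak by the standard of the other clusters. In the control they were at 176945482 to 176945981, with 36 fragments (25.2 to 49.8; 12.3 times the floor), at 176931420 to 176932160, with 35 (12.0 times), and at 177029770 to 177030254, with 32 (10.9 times). In the knockout they were at 176946809 to 176947298, with 61 (46.7 to 78.4; 13.8 times the floor), at 177036316 to 177037273, with 54 (12.2 times), and at 176945313 to 176946080, with 49 (11.1 times). Strong peaks, those with a −log10 q of at least 10, were 4 of 17 in the control and 14 of 20 in the knockout, against 57.0% and 74.5% of the whole lists. The knockout share lay close to that of its list, and −log10 q grows with depth, for which the only measure here, the floor, was 1.51 times higher in the knockout. With a fold enrichment of at least 5 required, 3 control and 9 knockout peaks were left in HOXD.

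Where both genotypes had a peak, pileup relative to the library mean was higher in the knockout in most HOXA and HOXC pairs. A pair is a control peak and a knockout peak that overlap each other and no further peak. They numbered 35 in HOXA, 40 in HOXC, 27 in HOXB and 14 in HOXD, so 116 pairs in all. The median log2 ratio of scaled pileup, knockout over control, was 0.25 in HOXA (0.11 to 0.40), 0.18 in HOXC (0.04 to 0.35), 0.11 in HOXB (-0.00 to 0.28) and -0.08 in HOXD (-0.45 to 0.37). Over all 206556 pairs it was 0.04, with quartiles of -0.18 and 0.26. Above 0 were 32 of 35 HOXA pairs, 32 of 40 HOXC pairs, 19 of 27 HOXB pairs and 6 of 14 HOXD pairs, against 54.6% of all pairs. The HOXA interval lies above the median of all pairs, that of HOXC starts at it to 2 decimals, and those of HOXB and HOXD include it.

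Pairs around each of the 4 clusters had a lower median ratio than those inside, with overlapping intervals. Pairs within 1 Mb of HOXA had a median of 0.11 (0.05 to 0.17, 239 pairs) and those near HOXC 0.08 (0.04 to 0.12, 322 pairs). Near HOXB it was 0.05 (-0.01 to 0.08, 316 pairs) and near HOXD -0.16 (-0.27 to 0.05, 28 pairs). The whole chromosome gave 0.07 for HOXA, 0.05 for HOXC, 0.07 for HOXB and -0.09 for HOXD. The mean log2 ratio of local background was 0.32 in HOXA pairs, 0.27 in HOXC, 0.10 in HOXB and -0.03 in HOXD, against 0.11 over all pairs. Higher pileup in HOXA and HOXC pairs was thus accompanied by higher background, and its part in the ratio was not tested. Ratios also climbed with the level of a peak over the whole genome. After subtraction of the median of all pairs of like level, HOXA was at 0.16 (0.04 to 0.30) and HOXC at 0.14 (-0.03 to 0.27). HOXB was at 0.05 (-0.09 to 0.27) and HOXD at -0.06 (-0.35 to 0.35). Only the HOXA interval lay above 0, and these intervals treat neighbouring pairs of 1 library per genotype as independent.

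**Figure D4:**
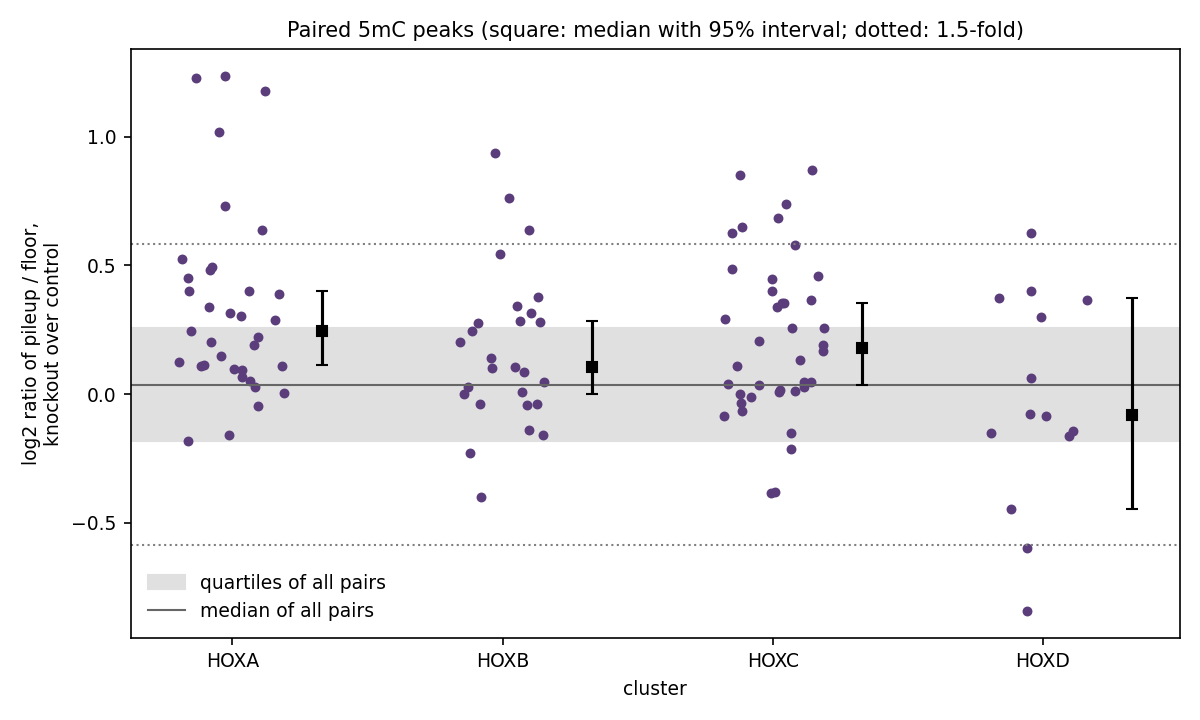
Log2 ratio of scaled pileup, knockout over control, for each pair of peaks (points, spread sideways for visibility) in each HOX cluster, with the median and its 95% interval (square). Grey shows the quartiles and median of all pairs of the genome, dotted lines a ratio of 1.5 either way. The 4 highest points, all above 1, are HOXA pairs, and the lowest 2 are HOXD pairs.

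Single HOXA pairs differed by more than 2-fold. The peak at 27146004 to 27148580 had a pileup of 39 (27.7 to 53.3) in the control and 139 (117 to 164) in the knockout, a scaled ratio of 2.35 (1.64 to 3.45). At 27152897 to 27153230 pileup was 22 and 78, a ratio of 2.34 (1.44 to 3.95). Both lay in the first segment, at 26.2 and 33.1 kb. At 33.1 kb the background was also higher in the knockout, by 0.88 on the log2 scale, against 0.16 at the other of these peaks. A total of 4 of 35 HOXA pairs were at least 2-fold higher in the knockout, against 0.445% of all pairs, and 0 of the HOXB, HOXC and HOXD pairs were.

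A ratio of at least 1.5 was met by 6 of 35 HOXA pairs, 6 of 40 HOXC pairs, 3 of 27 HOXB pairs and 1 of 14 HOXD pairs in the direction of the knockout, against 5.14% of all pairs. In the direction of the control it was met by 2 HOXD pairs and no other, against 3.60% of all pairs. In HOXC the largest were at 54387357 to 54390187, with pileups of 43 and 119, a ratio of 1.83 (1.28 to 2.66), at 54440491 to 54441774, with 48 and 131, a ratio of 1.80 (1.29 to 2.57), and at 54348630 to 54348963, with 23 and 58, a ratio of 1.67 (1.01 to 2.83). In HOXB they were at 46632815 to 46633270, with 19 and 55, a ratio of 1.91 (1.12 to 3.41), at 46691604 to 46692014, with 23 and 59, a ratio of 1.69 (1.03 to 2.88), and at 46614486 to 46614812, with 17 and 40, a ratio of 1.55 (0.862 to 2.92). Only the last of these was within counting error of equality.

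HOXD pairs went both ways. The pair higher in the knockout was at 176944051 to 176944366, with pileups of 18 and 42, a ratio of 1.54 (0.868 to 2.85). The lower ones were at 177029770 to 177030254, with 32 and 27, a ratio of 0.557 (0.321 to 0.961), and at 177004362 to 177004947, with 25 and 25, a ratio of 0.661 (0.364 to 1.20). Among all HOX pairs the one nearest inside the 1.5-fold bound was the last of these, at -0.60, and the one nearest outside was at 54408042 in HOXC, at 0.58 on the log2 scale.

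Most HOX peaks were found in both genotypes. Peaks in 1 list only were 14 of 164 in the control and 18 of 155 in the knockout, against 12.1% and 23.9% of the whole lists. Of control peaks 55 of 57 were shared in HOXA (96.5%, 87.9 to 99.6), 48 of 52 in HOXC (92.3%, 81.5 to 97.9), 33 of 38 in HOXB (86.8%, 71.9 to 95.6) and 14 of 17 in HOXD (82.4%, 56.6 to 96.2). Of knockout peaks it was 47 of 52 in HOXA (90.4%, 79.0 to 96.8), 45 of 48 in HOXC (93.8%, 82.8 to 98.7), 31 of 35 in HOXB (88.6%, 73.3 to 96.8) and 14 of 20 in HOXD (70.0%, 45.7 to 88.1). HOXD had the lowest shared fraction in each list, with wide intervals that overlap those of the other clusters.

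Strong peaks without a counterpart were few in number. The control had 2 among 108 strong peaks (1.85%), near the 3.24% of all its strong peaks. The knockout had 8 among 136 (5.88%), against 14.9%. Of these 8, HOXD held 3, among its 14 strong knockout peaks. The control ones were at 27173019 to 27173471 in HOXA, with a pileup of 21 (13.0 to 32.1), and at 46684527 to 46684931 in HOXB, with 24 (15.4 to 35.7). In HOXA the knockout ones were at 27259975 to 27260664, with 75 (59.0 to 94.0), whose summit lay just outside the span, at 27159848 to 27160281 (45), 27176093 to 27176417 (39) and 27258389 to 27258716 (31). HOXB had one at 46612660 to 46613074 (30), and HOXC had none in either list. In HOXD they were at 176946809 to 176947298, the strongest peak of that cluster, with 61 and a background at the floor, at 176986326 to 176986742 (47) and at 176987034 to 176987982 (40). With knockout pileup scaled to the control's depth the knockout count was 5. As deposited, 5 of the 8 had no control peak within 1000 bp, whereas the peak at 176946809 had 2 within that distance.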

How the data were processed

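MeDIP-seq had been done on 4 libraries (an input and a 5-methylcytosine immunoprecipitate per genotype). Reads were aligned with BWA to hg19, checked with FastQC and peaks called by MACS2, as the submitters' processing notes have it. The sources used here give no versions or settings, nor how duplicates were treated. The deposited lists, 1 per immunoprecipitate, hold the pileup signal at each summit, which is a whole number not scaled between libraries. They also hold the authors' fold enrichment (the ratio of pileup to local background, with 1 added to each) and the deposited −log10 p and −log10 q of each peak. Lists were matched to samples by genotype and antibody. Input libraries were not analysed here, and library depth is unknown.

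Local background was recomputed from pileup and fold. Its lowest value (the floor) gave 2.92 and 4.42 fragments, a depth ratio of 1.51, and a Poisson tail with these backgrounds met the listed −log10 p within 0.000573. Overlap needed 1 bp. Covered length was clipped to the span, and segments and bins count summits. Intervals are at 95%: exact Poisson for counts, exact Clopper-Pearson for shares and ratios of counts, order statistics for medians over peaks or pairs. Scripts used Python 3.11.15, numpy 2.4.6, pandas 2.3.3 and scipy 1.17.1 and were tested on simulated lists. The members and lists were chosen with earlier results of these data known. Regions named were, in each cluster, the top 3 peaks by scaled pileup, peaks of 2 kb or longer, up to 5 strong list-only peaks per list, up to 3 pairs per direction past 1.5-fold and the longest stretch without a peak. The 4 upstream sequences, the pairs within 1 Mb, the 2-fold count, the count of peaks meeting several of the other list, the share of strong peaks and the 10 kb bins were chosen after values were seen. One of the pairs that this rule names is not reported here. Planned results on gene starts and peak sequence were not run, since no hg19 annotation or genome was used here. Alternatives are given in the closing section.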

Additional observations from a re-analysis of the deposited data

How the results depend on the processing

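Of 241 alternatives over 66 results, 211 stayed within bounds (the 95% interval, or 1.5 times where a result had none) and 30 left them. Reversal was judged only for the log2 ratios, of which 0 changed sign. Cutting the knockout list to the control's number of peaks, or scaling it to the control's depth, left the control list as it was. Control peak counts, covers and positions could not move under these and are among the 211. Summits at the high-numbered over the low-numbered end of HOXA crossed 1 within bounds. In the control the ratio was 0.917 with 4 segments and 1.11 with 2. In the knockout it was 1.30, and 0.90 at a fold of at least 5. Merged regions and centring on pairs of like level were chosen after seeing the data. A required fold of at least 5 shrinks the lists by construction: it left 21 control peaks in HOXB, 3 control and 9 knockout peaks in HOXD, HOXD covers of 1.16% and 3.71%, a shared fraction of 22.2% for HOXD in the knockout, a HOXD median log2 ratio of -0.50, and 4 control and 27 knockout strong list-only peaks in the 4 clusters. With 50% reciprocal overlap, shared fractions were 66.7% (control) and 73.1% (knockout) in HOXA and 80.8% in HOXC (control), and strong list-only peaks were 21 and 23. Where a neighbour within 1000 bp also counted as shared they were 1 and 5, at a −log10 q of 5 they were 10 and 17, and at 20 they were 0 and 3. With the knockout scaled to the control's depth they were 5 in the knockout. Fold in place of pileup gave HOXA medians of 1.36 (control) and 1.34 (knockout) times the list's. With 50 kb windows, 98.8% (control) and 98.8% (knockout) of windows were less covered than HOXA, 94.1% and 92.4% than HOXB, 97.8% and 97.6% than HOXC, and 72.2% than HOXD (control). Where no construction is named, the cause was not tested. No paired analysis was possible because there was 1 library per genotype.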

Other observations

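The knockout over control ratio of paired peaks was higher at higher peak level over the whole genome, which is the scale against which the HOX clusters are to be read. The median log2 ratio was -0.10 over 19264 pairs with a level (geometric mean of both scaled pileups) up to 6, -0.01 from 6 to 8, 0.05 from 8 to 10, 0.07 from 10 to 14, 0.09 from 14 to 18 and 0.10 over 7541 pairs above 18. Among the highest pairs, above 18, HOXA had a median of 0.36 over 16 pairs, of which 15 were above 0. HOXC had 0.21 over 10 pairs, all 10 above 0, and HOXB -0.09 over 2 pairs. From 14 to 18 the medians were 0.25 over 7 HOXA pairs, 0.25 over 8 HOXC pairs and 0.10 over 6 HOXB pairs. HOXD had no pair above a level of 14. In the class from 10 to 14 the medians were 0.22 over 7 HOXA pairs, 0.35 over 9 HOXC pairs, 0.22 over 10 HOXB pairs and -0.14 over 3 HOXD pairs. At lower levels the cluster medians rested on few pairs and the HOXA and HOXC ratios were not higher throughout. From 8 to 10 they were 0.00 over 3 HOXA pairs, -0.10 over 2 HOXC pairs, 0.06 over 4 HOXB pairs and 0.14 over 4 HOXD pairs. From 6 to 8 they were 0.56 over 2 HOXA pairs, 0.01 over 9 HOXC pairs (5 above 0), 0.28 over 5 HOXB pairs and 0.06 over 5 HOXD pairs. Up to 6 they were 0.05 over 2 HOXC pairs and -0.30 over 2 HOXD pairs.

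Along the clusters the ratio had no common order. In 4 equal segments from the low-numbered end the median was 0.36, 0.12, 0.21 and 0.29 in HOXA and 0.15, 0.40, 0.05 and 0.12 in HOXC. In HOXB it was 0.26, 0.20, 0.04 and 0.06. In HOXD, with 2, 2, 3 and 7 pairs, it was 0.34, -0.72, 0.37 and -0.14. All 10 pairs in the third segment of HOXA, the most covered one, were above 0.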
